A study of Bubalus bubalis with 6 samples.

Results

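The genes of the p53 pathway were followed by transcript abundance in buffalo (Bubalus bubalis) cultures, labelled as adipocytes, that overexpressed the long non-coding RNA lncFABP4. Members were taken by gene name from a list of 31: the feedback regulators of p53 and its widely cited target genes. Of these names, 27 were found, on 28 gene models of the 19476 in the table (CCNG1 has 2 models). The names BAX, PMAIP1, APAF1 and TRIAP1 matched no model and are not analysed here. The study had 3 samples that the labels call lncFABP4 overexpress, transduced with Ad_lncFABP4, and 3 that they call WT, transduced with Ad_EGFP, an adenovirus for a green fluorescent protein. All 6 were labelled as intramuscular adipocytes, fat cells that lie between muscle fibres, and all had both an adenovirus and the adipogenic inducing medium, so no sample shows cells without virus. They were kept for 48 hours after transduction and for 48 hours in that medium, and are labelled day 4. The labels give neither the animals nor the virus dose. Cells were planted in triplicate, and whether the replicates are separate cultures or animals is not said, so the p-values cover the spread among these samples alone and that spread may be technical. The transcript of lncFABP4 was not analysed here; FABP4, the fatty acid carrier gene whose name it shares, was at 6505, 10588 and 12003 FPKM in lncFABP4 replicates 1, 2 and 3, and between 149 and 197 FPKM in the EGFP samples.

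The transcription factor p53 is stabilised when cells meet DNA damage, disturbed ribosome production or other stress. It then raises genes that halt the cell cycle, repair DNA, change metabolism or promote cell death, and it also raises MDM2, the ubiquitin ligase that marks p53 itself for destruction. Its activity is controlled largely at the protein level, which RNA abundance does not show. Many of its targets also respond to other transcription factors.

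Of the 25 member models that could be tested, 13 rose and 2 fell after lncFABP4 transduction, and 10 were not called. The values are FPKM, fragments scaled to model length and to the mapped fragments of the library, and the test was limma on log2(FPKM + 1) with an adjusted p under 0.05 over all 11064 models tested. Across all of them 16.5% were called higher and 10.2% lower, while 52% of the tested members were called higher and 8% lower. The members were chosen with earlier results of these data known, so this comparison describes them and is not a test. The median change was 0.33 (log2) over the tested members and 0.05 over all models. Of all 11064 models 26.7% were called in either direction. The ranges of the groups were apart, with no overlap, in 20 of the 25 members, against 43.9% of all models: lncFABP4 was above EGFP in 17, against 26.6%, and below in 3, against 17.2%. Of all calls 61.8% were higher, but 51.2% with TMM scaling and 49.2% with median-of-ratios scaling, under both of which 12 members were higher and 3 lower. Each of the 25 was at least 1 FPKM in all 6 samples, so none entered the test through a single group. Leaving out 1 library gave between 9 and 12 members higher and 1 or 2 lower, when 9.06% to 18.0% of all models were called higher and 5.66% to 13.2% lower. Without replicate number 3 of both groups 7 were higher and 1 lower, when 2.90% and 1.89% of all models were called in those directions.

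**Figure D1:**
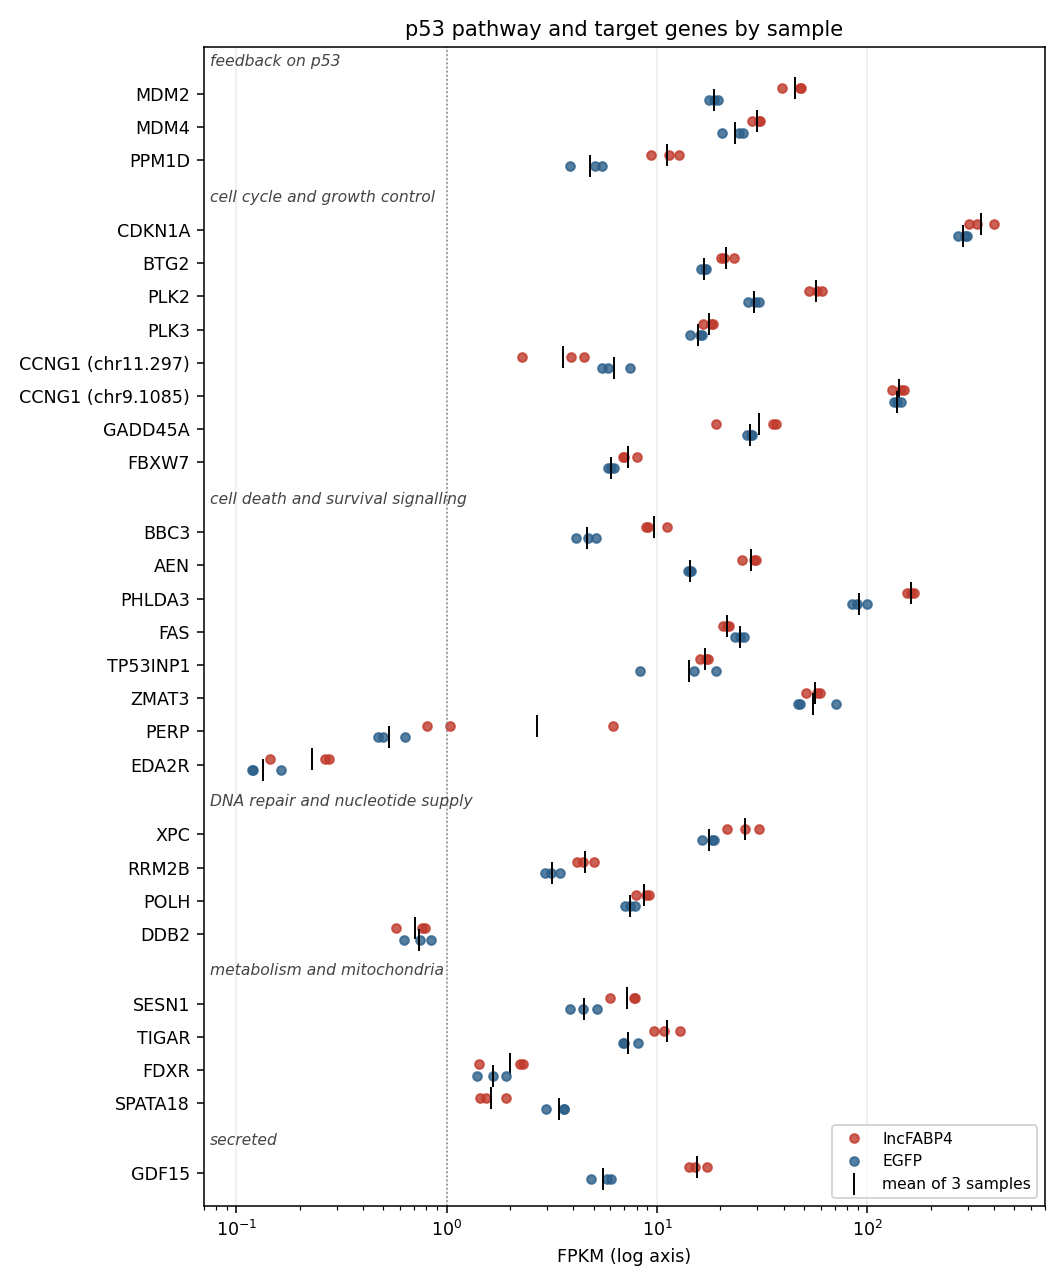
FPKM of the 28 member models in each sample (log axis), grouped by role, with lncFABP4 samples in red, EGFP samples in blue, black ticks at the mean of 3 samples and a dotted line at 1 FPKM. The red points lie to the right of all blue points for MDM2, PPM1D, PLK2, BBC3, AEN, PHLDA3 and GDF15, and to the left for SPATA18; a single lncFABP4 sample of PERP stands apart at 6.18 FPKM.

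The feedback genes of p53 all rose. MDM2 stood at 48.4, 47.6 and 39.1 FPKM in the lncFABP4 samples and at 18.7, 19.5 and 17.6 FPKM in the EGFP samples. Its lowest lncFABP4 sample was well above every EGFP sample, a log2 change of 1.23 (SE 0.10, adjusted p = 0.000289 by limma) that ranked 39 from the top among the 11064 models. PPM1D, the phosphatase that removes activating phosphates from p53 and from the kinases upstream of it, held 9.38, 12.8 and 11.4 FPKM in the lncFABP4 samples and 3.84, 5.47 and 5.07 FPKM in the EGFP samples. The groups were well apart, with a log2 change of 1.07 (SE 0.14, adjusted p = 0.00186 by limma). MDM4, the relative of MDM2 that binds p53 and blocks its activity as a transcription factor, was at 30.5, 28.2 and 30.8 FPKM in the lncFABP4 samples and 20.4, 24.5 and 25.7 FPKM in the EGFP samples. Here the groups were close but did not overlap, and the log2 change was 0.33 (SE 0.10, adjusted p = 0.0364 by limma). The MDM4 call was lost without any single library other than EGFP replicate 3 (adjusted p from 0.0520 to 0.120), with TMM scaling (0.0548), with median-of-ratios scaling (0.0605) and without a filter on low values (0.0675). On the FPKM scale, which is per length, MDM2 was 1.59, 1.69 and 1.27 times MDM4 in the lncFABP4 samples and 0.913, 0.796 and 0.684 times MDM4 in the EGFP samples, so MDM2 was above MDM4 in each lncFABP4 sample and below it in each EGFP sample.

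**Figure D2:**
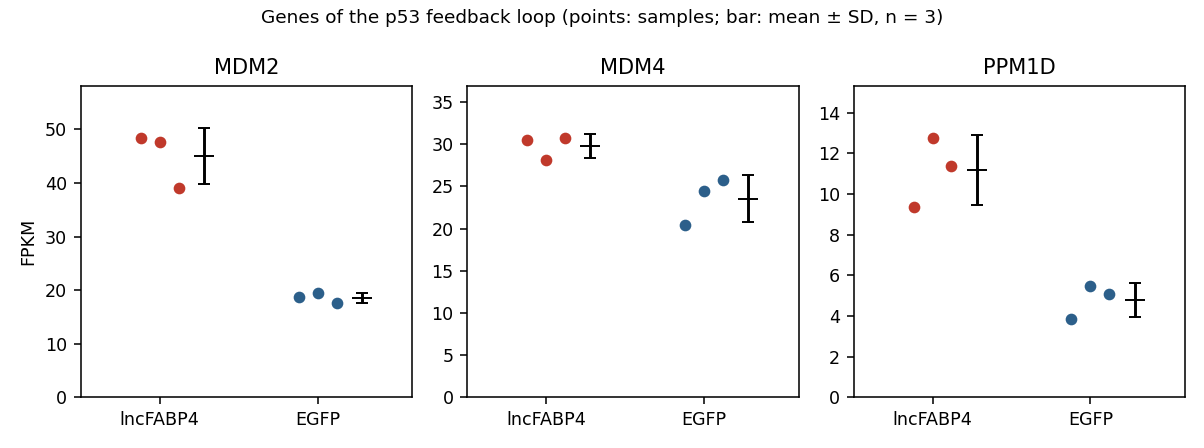
FPKM of MDM2, MDM4 and PPM1D in each sample (points; axes start at 0), with the mean and SD of 3 samples beside them, lncFABP4 left of EGFP. MDM2 averaged 45.1 FPKM after lncFABP4 and 18.6 FPKM after EGFP, and the red points lie above all blue points in each of the 3 panels.

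Among the genes of cell cycle and growth control, 2 of 8 models rose and 1 fell. PLK2, a polo-like kinase that takes part in centriole duplication, stood at 61.1, 57.9 and 52.9 FPKM in the lncFABP4 samples and at 29.3, 27.1 and 30.7 FPKM in the EGFP samples. The groups were far apart, with a log2 change of 0.95 (SE 0.08, adjusted p = 0.000383 by limma). BTG2, an antiproliferative gene that acts in mRNA turnover, had 23.2, 20.7 and 20.2 FPKM in the lncFABP4 samples and 16.24, 16.97 and 17.09 FPKM in the EGFP samples. It rose by 0.33 on the log2 scale (SE 0.08, adjusted p = 0.0176 by limma), without overlap between the groups, but was not called without EGFP replicate 1 (adjusted p = 0.0656) or EGFP replicate 3 (0.0518).

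CDKN1A, which encodes the cyclin-dependent kinase inhibitor p21 and is the best known p53 target in cell cycle arrest, was the most abundant member and was not called. It was at 400.0, 306 and 332 FPKM in the lncFABP4 samples and at 296, 290 and 271 FPKM in the EGFP samples. The lncFABP4 samples were all above the EGFP samples, though the lowest of the first exceeded the highest of the second by little. The log2 change was 0.27 with a 95% interval of 0.03 to 0.50 (adjusted p = 0.0855 by limma). It was called after rescaling without FABP4 (adjusted p = 0.0489) and, just under the threshold, with the replicate number as a block. CDKN1A made up between 29.4% and 34.9% of the summed FPKM of all members in the lncFABP4 samples and between 33.8% and 35.3% in the EGFP samples.

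The cyclin G1 gene CCNG1, whose product recruits a phosphatase that acts on MDM2, gave different results for its models. The abundant one, evm.model.chr9.1085, was at 130.3, 149.6 and 145 FPKM in the lncFABP4 samples and at 138, 144 and 134 FPKM in the EGFP samples. These ranges overlap, and the log2 change was 0.03 (95% interval -0.14 to 0.20, adjusted p = 0.791 by limma). It is next in number to models named NUDCD2 and HMMR, which also lie beside the single CCNG1 entry of RefSeq for the buffalo assembly NDDB_SH_1 (used for names only, since the build of the table is not known). The other model, evm.model.chr11.297, lies between models named TBPL1 and SLC2A12. It held 4.47, 3.91 and 2.29 FPKM in the lncFABP4 samples and 7.47, 5.50 and 5.82 FPKM in the EGFP samples. The groups did not overlap, and the log2 change was -0.70 (SE 0.19, adjusted p = 0.0308 by limma). That call was lost without lncFABP4 replicate 3 (adjusted p = 0.0627), EGFP replicate 1 (0.103) or EGFP replicate 3 (0.0686), and without a filter on low values (0.0866). Both carry the same UniProt entry in the table, so reads may have been shared between them.

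The remaining growth control genes were not called. GADD45A, a stress sensor with a role in repair and arrest, was at 36.9, 19.0 and 35.7 FPKM in the lncFABP4 samples and between 26.8 and 28.4 FPKM in the EGFP samples. A single lncFABP4 sample lay below all EGFP samples and the others above them, which gave a log2 change of 0.08 (95% interval -0.42 to 0.58). Without that sample, lncFABP4 replicate 2, GADD45A was called higher, with a log2 change of 0.38 (adjusted p = 0.0243 by limma). PLK3, a stress-responsive relative of PLK2, ranged from 16.5 to 18.4 FPKM in the lncFABP4 samples and from 14.4 to 16.3 FPKM in the EGFP samples (log2 0.17, 95% interval -0.02 to 0.36). FBXW7, the part of a ubiquitin ligase that recognises cyclin E and MYC, ranged from 6.91 to 8.06 FPKM in the lncFABP4 samples and from 5.87 to 6.22 FPKM in the EGFP samples (log2 0.24, 95% interval 0.03 to 0.44, adjusted p = 0.0825 by limma). For both genes the groups did not overlap, by a small margin.

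Genes of cell death and survival signalling rose in 3 of the 6 models that were tested. BBC3 encodes PUMA, which binds and neutralises the guardians of the BCL-2 family. It stood at 11.2, 8.89 and 9.08 FPKM in the lncFABP4 samples and at 4.72, 4.11 and 5.13 FPKM in the EGFP samples, a log2 change of 0.92 (SE 0.11, adjusted p = 0.00143 by limma). AEN, a nuclease that digests DNA in dying cells, was at 25.4, 28.8 and 29.6 FPKM in the lncFABP4 samples and at 14.0, 14.4 and 14.5 FPKM in the EGFP samples. Its EGFP samples were nearly equal, with an SD of 1.61% of the mean, and the log2 change was 0.92 (SE 0.08, adjusted p = 0.000419 by limma). PHLDA3, which competes with the survival kinase AKT for membrane lipids, was the most abundant of the raised members. It held 161, 154 and 167 FPKM in the lncFABP4 samples and 99.9, 89.1 and 84.7 FPKM in the EGFP samples (log2 0.81, SE 0.08, adjusted p = 0.000599 by limma). For each of these 3 genes every lncFABP4 sample was above every EGFP sample.

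FAS, a death receptor at the cell surface, went the other way without being called. It was at 20.6, 22.1 and 21.6 FPKM in the lncFABP4 samples and at 24.8, 26.0 and 23.5 FPKM in the EGFP samples. All lncFABP4 samples were below all EGFP samples, and the log2 change was -0.20 (95% interval -0.37 to -0.03, adjusted p = 0.0779 by limma). FAS was called lower with TMM scaling (adjusted p = 0.0448) and with median-of-ratios scaling (0.0386). TP53INP1, which takes part in autophagy and cell death, ranged from 15.9 to 17.5 FPKM in the lncFABP4 samples and from 8.33 to 19.0 FPKM in the EGFP samples. ZMAT3, an RNA-binding zinc finger protein that regulates splicing, ranged from 51.3 to 59.8 FPKM in the lncFABP4 samples and from 47.0 to 71.0 FPKM in the EGFP samples. In both, a single EGFP sample stood apart (replicate 3 low for TP53INP1, replicate 2 high for ZMAT3), the groups overlapped, and the log2 changes were 0.31 (95% interval -0.24 to 0.86) and 0.05 (95% interval -0.30 to 0.40).

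PERP and EDA2R were under the minimum for testing, which was 1 FPKM in at least 3 samples. PERP, a membrane protein of cell junctions with a role in cell death, was at 6.18, 1.04 and 0.810 FPKM in the lncFABP4 samples and at 0.473, 0.631 and 0.497 FPKM in the EGFP samples. The groups did not overlap, but replicate 1 was several times higher than the other lncFABP4 samples. EDA2R, a receptor of the tumour necrosis factor family, was at most 0.276 FPKM in the lncFABP4 samples and 0.163 FPKM in the EGFP samples.

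Of the genes for DNA repair and nucleotide supply, 2 of 3 tested models rose. XPC, which recognises damage for nucleotide excision repair, was at 30.5, 21.6 and 26.1 FPKM in the lncFABP4 samples and at 18.2, 16.3 and 18.6 FPKM in the EGFP samples. The lncFABP4 samples were spread widely but all lay above the EGFP samples (log2 0.52, SE 0.12, adjusted p = 0.0166 by limma), and the call was lost without lncFABP4 replicate 3 (adjusted p = 0.0563). RRM2B, the p53-inducible subunit of ribonucleotide reductase, held 4.15, 5.02 and 4.42 FPKM in the lncFABP4 samples and 3.12, 3.44 and 2.93 FPKM in the EGFP samples. It rose by 0.41 on the log2 scale (SE 0.10, adjusted p = 0.0185 by limma), with no overlap, and was not called without lncFABP4 replicate 2 (adjusted p = 0.0724), lncFABP4 replicate 3 (0.0586), EGFP replicate 1 (0.0590) or EGFP replicate 3 (0.0701). POLH, the polymerase that copies past ultraviolet lesions, ranged from 7.91 to 9.12 FPKM in the lncFABP4 samples and from 7.04 to 7.84 FPKM in the EGFP samples (log2 0.19, 95% interval -0.01 to 0.39, adjusted p = 0.147 by limma). DDB2, which finds ultraviolet damage, was under the minimum, from 0.577 to 0.787 FPKM in the lncFABP4 samples and from 0.627 to 0.844 FPKM in the EGFP samples.

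Of the metabolic and mitochondrial members, 2 rose and 1 fell. SESN1, a sestrin that restrains the growth kinase complex mTORC1, was at 5.94, 7.84 and 7.78 FPKM in the lncFABP4 samples and at 4.46, 5.20 and 3.85 FPKM in the EGFP samples. The groups did not overlap (log2 0.57, SE 0.13, adjusted p = 0.0156 by limma). The SESN1 call was lost without lncFABP4 replicate 2 (adjusted p = 0.0545), lncFABP4 replicate 3 (0.0610) or EGFP replicate 3 (0.0570). TIGAR, which lowers a sugar phosphate that drives glycolysis, held 9.72, 12.8 and 10.7 FPKM in the lncFABP4 samples and 6.93, 8.11 and 6.86 FPKM in the EGFP samples. All lncFABP4 samples were higher (log2 0.54, SE 0.12, adjusted p = 0.0115 by limma). SPATA18, known as MIEAP, acts in the clearance of damaged mitochondrial proteins and was the member with the clearest fall. It was at 1.44, 1.92 and 1.54 FPKM in the lncFABP4 samples and at 3.62, 3.61 and 2.97 FPKM in the EGFP samples, with a log2 change of -0.74 (SE 0.11, adjusted p = 0.00291 by limma). FDXR, the reductase that passes electrons to mitochondrial ferredoxin, ranged from 1.42 to 2.31 FPKM in the lncFABP4 samples and from 1.40 to 1.92 FPKM in the EGFP samples, which overlap (log2 0.16, 95% interval -0.17 to 0.49).

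GDF15, a secreted cytokine of the TGF-beta superfamily that many stresses induce, had the largest log2 change of the members tested. It was at 17.4, 14.2 and 15.2 FPKM in the lncFABP4 samples and at 5.77, 4.83 and 6.02 FPKM in the EGFP samples. The groups were far apart, a change of 1.34 (SE 0.11, adjusted p = 0.000294 by limma) that ranked 30 from the top among 11064 models. GDF15, MDM2 and PPM1D were the 3 members called with a log2 change of at least 1, a size that 0.615% of all models reached with a call in this direction.

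**Figure D3:**
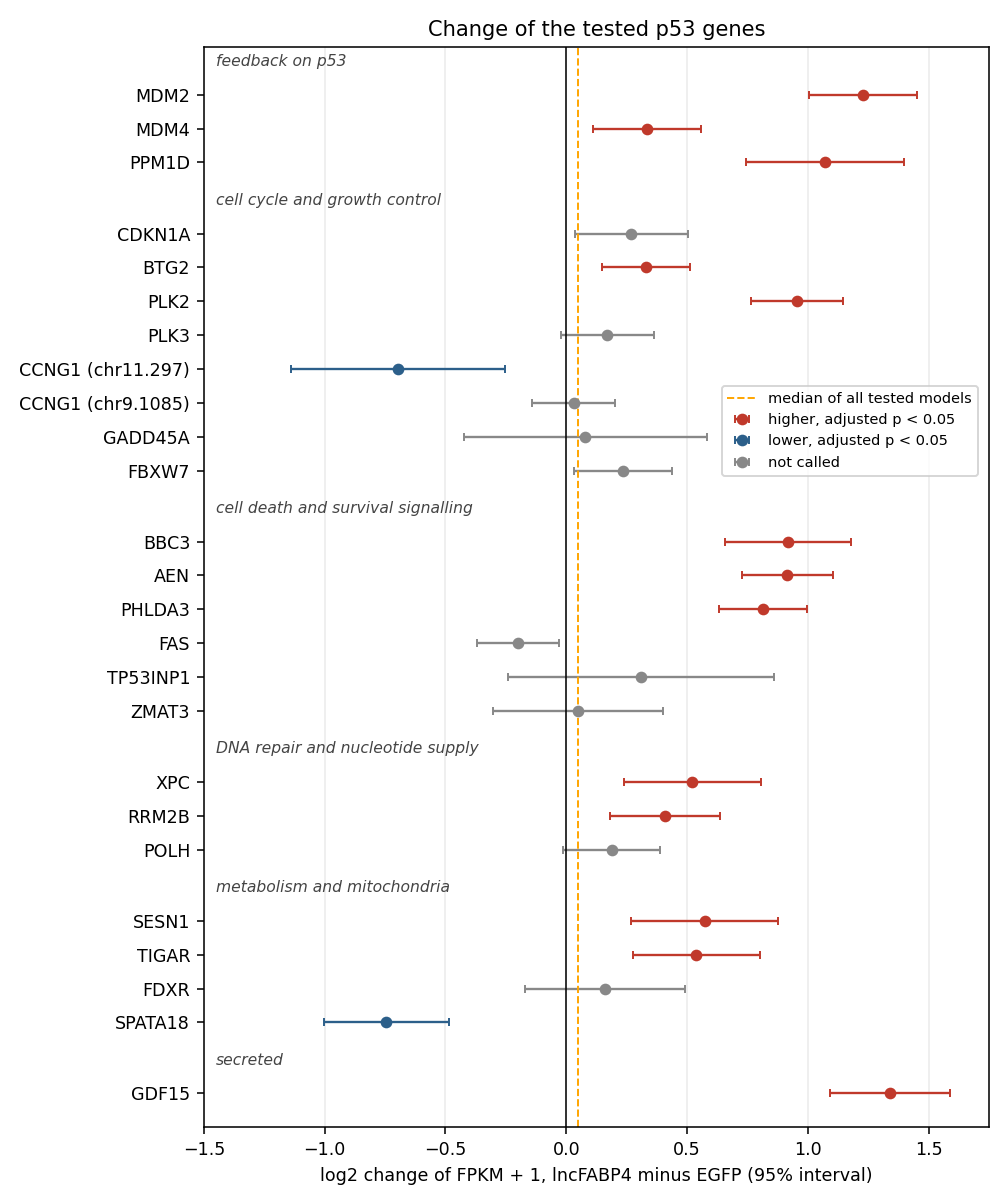
Change of log2(FPKM + 1), lncFABP4 minus EGFP, with its 95% interval for the 25 tested member models, grouped by role (red: called higher; blue: called lower; grey: not called; dashed line: median of all tested models). The 13 red points run from 0.33 (BTG2 and MDM4) to 1.34 (GDF15), and SPATA18 and 1 CCNG1 model are the blue points at -0.74 and -0.70.

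Which lncFABP4 library was highest differed among the raised members. Of the 13 raised members, 6 were highest in replicate 1, 4 in replicate 2 and 3 in replicate 3. The median difference of the 25 tested members from the EGFP mean was 0.37, 0.29 and 0.35 (log2) in lncFABP4 replicates 1, 2 and 3, beside 0.05, 0.04 and 0.05 for all models. The 3 libraries were thus close in the median of the members, and no relation to FABP4 can be tested with 3.

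Other genes that control p53 were taken from a list of 26 names, of which 25 were found. Of the 26 models tested, 5 were called and 21 were not, and the median change was 0.00 (log2). That is 19.2% called, against 26.7% of all models. Without lncFABP4 replicate 2 or 3, 2 of the 26 were called, when 1780 of 10950 and 1634 of 10942 models in all were called. The acetyltransferase gene KAT5 rose (12.3 ± 0.465 against 9.21 ± 0.537 FPKM in lncFABP4 and EGFP samples, SD, n = 3 each; log2 0.39, adjusted p = 0.0101 by limma), and so did RCHY1, a ubiquitin ligase of p53 (18.2 ± 1.17 against 14.3 ± 0.608 FPKM; log2 0.32, adjusted p = 0.0207 by limma). RPL5, whose ribosomal protein binds MDM2 when ribosome assembly is disturbed, has 4 models, of which 2 fell and 2 were under the minimum (evm.model.chr5.620 averaged 0.730 FPKM in lncFABP4 samples and 0.535 FPKM in EGFP samples, and evm.model.chr9.799 averaged 0.199 and 0.519 FPKM in the same order). The abundant one, evm.model.chr6.593, averaged 574 ± 19.2 FPKM in lncFABP4 samples and 760 ± 25.7 FPKM in EGFP samples (log2 -0.40, adjusted p = 0.00333 by limma). The other called one, evm.model.chr22.609, averaged 90.8 ± 3.09 and 112 ± 4.32 FPKM in the same order (log2 -0.31, adjusted p = 0.0120 by limma), and near-identical copies can share reads. RCHY1 was not called without lncFABP4 replicate 2 (adjusted p = 0.0834), lncFABP4 replicate 3 (0.0817) or EGFP replicate 3 (0.0701), KAT5 without lncFABP4 replicate 3 (0.0508) and the lesser RPL5 model without lncFABP4 replicate 2 (0.0555).

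Of a second list of p53 targets outside the members, 41 models were tested and most, 26, were not called; 8 rose and 7 fell, with a median change of 0.11 (log2). The 19.5% higher and 17.1% lower stand beside 16.5% and 10.2% of all models. Without lncFABP4 replicate 3 or EGFP replicate 3, 9 of the 41 were called, when 1634 of 10942 and 1771 of 10916 models in all were called. A difference between the members and this list was not tested. BCL2L1 (evm.model.chr15.399; another model was under the minimum), which encodes the survival protein BCL-XL, averaged 20.5 ± 0.366 FPKM in lncFABP4 samples and 11.1 ± 0.662 FPKM in EGFP samples (log2 0.83, adjusted p = 0.000455 by limma). NOTCH1, a signalling receptor with another model under the minimum (6.23 ± 0.510 against 2.85 ± 0.230 FPKM, log2 0.91), and DUSP5, a phosphatase of ERK (9.64 ± 1.11 against 4.47 ± 0.523 FPKM, log2 0.96), also rose. THBS1, the matrix protein thrombospondin, averaged 645 ± 32.1 FPKM in lncFABP4 samples and 1098 ± 91.8 FPKM in EGFP samples (log2 -0.76, adjusted p = 0.000765 by limma). SESN3, a relative of the raised SESN1, averaged 2.19 ± 0.244 and 5.46 ± 0.928 FPKM in the same order (log2 -1.01, adjusted p = 0.00143 by limma). The membrane protein gene CD82 fell by 0.88 on the log2 scale (1.00 ± 0.207 against 2.67 ± 0.257 FPKM). It was at 0.780 FPKM in lncFABP4 replicate 3, so the lncFABP4 samples alone would not have met the minimum for testing.

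In the apoptosis machinery outside the members, 6 of 15 tested models rose, 1 fell and 8 were not called, and the median was -0.04 (log2). The shares were 40% higher and 6.67% lower, against 16.5% and 10.2% of all models. Without lncFABP4 replicate 2 or EGFP replicate 1, 4 of the 15 were called, when 1780 of 10950 and 1884 of 10926 models in all were called. BCL2L1, given above, is also in this list. CYCS, the cytochrome c gene, averaged 82.6 ± 7.40 FPKM in lncFABP4 samples and 38.5 ± 1.52 FPKM in EGFP samples (log2 1.08, adjusted p = 0.000272 by limma). The adaptor of death receptors FADD rose by 0.51, BAK1, which forms pores in the mitochondrial membrane, by 0.44, and DIABLO, which antagonises caspase inhibitors, by 0.34 (log2; adjusted p = 0.00470 by limma, 0.00928 and 0.0135). BID, which links death receptors to mitochondria and is also in the second target list, averaged 13.5 ± 1.57 FPKM in lncFABP4 samples and 18.1 ± 0.454 FPKM in EGFP samples (log2 -0.40, adjusted p = 0.0159 by limma). BID was not called without lncFABP4 replicate 2 (adjusted p = 0.0601), lncFABP4 replicate 3 (0.0652), EGFP replicate 1 (0.0538) or EGFP replicate 3 (0.0578), and DIABLO without lncFABP4 replicate 2 (0.0571) or EGFP replicate 1 (0.0558).

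Cell cycle genes that the DREAM complex is known to hold down when p21 accumulates were mostly low in these cells. Of 23 models, 7 were under the minimum, 5 rose, none fell and 11 were not called by limma, with a median of 0.19 (log2). The share higher was 31.2%, against 16.5% of all models. Of the 16 tested, 7 had an unadjusted p under 0.05 by limma, as did 4447 of all 11064 models. Without lncFABP4 replicate 2 or 3, 3 of 14 models tested were called, when 1780 of 10950 and 1634 of 10942 models in all were called. RRM2 (evm.model.chr10.721), the cycling subunit of ribonucleotide reductase, was at 2.55, 6.78 and 6.65 FPKM in the lncFABP4 samples and at 0.827, 1.02 and 1.24 FPKM in the EGFP samples (log2 1.56, adjusted p = 0.00564 by limma). MYBL2, a transcription factor of late cell cycle genes, averaged 3.77 ± 0.489 FPKM in lncFABP4 samples and 1.12 ± 0.126 FPKM in EGFP samples (log2 1.17, adjusted p = 0.000489 by limma). The cyclin gene CCNA2 rose by 0.88, the topoisomerase gene TOP2A by 0.93 and CDC20, an activator of the anaphase ligase, by 0.69 (log2). CDC20 reached the minimum only in the lncFABP4 samples, so it could enter the test only as a higher gene. RRM2 was at 0.827 FPKM in EGFP replicate 1 and MYBL2 at 0.973 FPKM in EGFP replicate 2. For these genes too, the EGFP samples alone would not have met the minimum. TOP2A was not called without lncFABP4 replicate 2 (adjusted p = 0.0519), lncFABP4 replicate 3 (0.0646), EGFP replicate 1 (0.0550) or EGFP replicate 3 (0.0567), nor without a filter on low values (0.0590). With a filter at 5 FPKM only 4 models of this list were tested, with a median of -0.13, and limma called 0, also at an unadjusted p under 0.05. Of all 7583 models then tested, limma called 2298, and 3228 had an unadjusted p under 0.05. None of the 5 raised models passed that filter. With no filter limma called 5 of 23 models, all higher, with a median of 0.31, when 8.05% of all models were called higher. Of these 23, 12 had an unadjusted p under 0.05 by limma, as did 5554 of all 19476 models. Under the minimum, BUB1, BUB1B, PLK4, CCNB1, FOXM1 and CDC25C were higher in every lncFABP4 sample than in every EGFP sample. Of all tested models 26.6% were apart in this direction, and the share among all models under the minimum was not taken. PLK4 was barely apart, at 0.628 FPKM in lncFABP4 replicate 1 and 0.626 FPKM in EGFP replicate 2. FOXM1 and CDC25C were at most 0.303 and 0.761 FPKM in any sample. CCNB1 was at 0.827 to 2.23 against 0.492 to 0.576 FPKM, and the other RRM2 model overlapped between the groups.

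A list of stress genes, of which SESN2 is also in the second target list, had 2 of 12 tested models higher, 1 lower and 9 not called, with a median of 0.00 (log2). These 16.7% and 8.33% are near the 16.5% and 10.2% of all models. CHAC1 was under the minimum, at 0.703, 0.858 and 0.735 FPKM in the lncFABP4 samples and 0.187, 0.232 and 0.187 FPKM in the EGFP samples. With no filter 4 of 13 models were called, with a median of 0.13 (log2). Of all models 8.05% were then called higher and 5.25% lower. ASNS, the asparagine synthetase gene, averaged 8.73 ± 0.842 FPKM in lncFABP4 samples and 5.45 ± 0.241 FPKM in EGFP samples (log2 0.59, adjusted p = 0.00352 by limma). A model of the pseudokinase gene TRIB3, evm.model.chr15.393, rose by 0.59 on the log2 scale; it was under 1 FPKM in every EGFP sample and so entered the test through the lncFABP4 samples alone. The more abundant TRIB3 model beside it, evm.model.chr15.392, was not called, at 10.3 ± 0.592 FPKM in lncFABP4 samples and 9.29 ± 0.303 FPKM in EGFP samples (log2 0.13, adjusted p = 0.246 by limma). Without lncFABP4 replicate 3, 1 of 11 stress models tested was called, when 1634 of 10942 models in all were called. DDIT4, an inhibitor of mTORC1, averaged 98.9 ± 1.79 FPKM in lncFABP4 samples and 119 ± 7.19 FPKM in EGFP samples (log2 -0.26, adjusted p = 0.0269 by limma). The DDIT4 call was lost without lncFABP4 replicate 2 (adjusted p = 0.0761), lncFABP4 replicate 3 (0.105), EGFP replicate 1 (0.0987) or EGFP replicate 3 (0.0745).

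**Figure D4:**
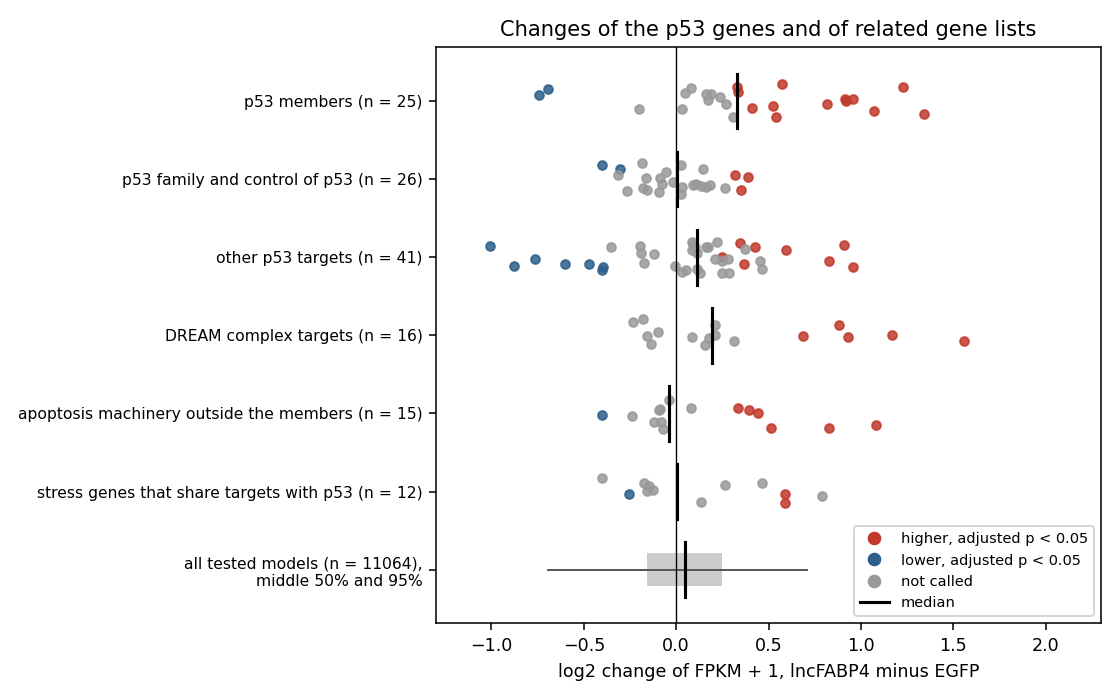
Change of log2(FPKM + 1), lncFABP4 minus EGFP, of each tested model (points) in the p53 members and in 5 related lists, with black bars at the medians; the lowest row gives the middle 50% (box) and 95% (line) of all 11064 tested models. The median is 0.33 for the members and lies between -0.04 and 0.19 for the other lists.

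The cells were checked against marker lists. Of the fat cell markers, ADIPOQ and CEBPA were under 1 FPKM in every sample, and LEP and PLIN1 matched no model. Beside FABP4, PPARG averaged 25.2 FPKM in lncFABP4 samples and 12.2 FPKM in EGFP samples and was called higher (log2 0.98), LPL averaged 1.00 and 2.78 FPKM in the same order and was called lower (log2 -0.90), and CIDEC was not called (2.54 and 2.07 FPKM). LPL was at 0.910, 1.18 and 0.903 FPKM in the lncFABP4 samples, so it passed the filter only through the EGFP samples. All 3 skeletal muscle markers found (ACTA1, CKM and MYF5), 4 of 6 endothelial markers (CDH5, KDR, PECAM1 and TEK) and 3 of 5 macrophage and leukocyte markers (CD3E, CSF1R and PTPRC) were also under 1 FPKM in every sample. The muscle names MYH1, MYH2, MYOD1, MYOG and PAX7 and the macrophage name AIF1 matched no model. Of the other endothelial, macrophage and leukocyte markers, VWF was called higher (4.12 FPKM in lncFABP4 samples and 3.05 FPKM in EGFP samples) and CD163 lower (5.91 and 9.04 FPKM), while ERG (2.07 and 1.27 FPKM) and CD68 (8.88 and 9.46 FPKM) were not called. The summed level of 6 mesenchymal progenitor markers was 5178 to 5662 FPKM in lncFABP4 samples and 8032 to 8610 FPKM in EGFP samples. Most of it was COL1A1 (2881 and 3629 FPKM in the same order) and DCN (2230 and 4235 FPKM). These 2, THY1 and PDGFRA were called lower, but PDGFRB was not called (40.7 and 43.4 FPKM). CD34, under 1 FPKM in every sample, was higher in the lncFABP4 samples (0.135 and 0.0310 FPKM). The sum of 6 smooth muscle and pericyte markers was 169 to 237 FPKM in lncFABP4 samples and 89.6 to 148 FPKM in EGFP samples. Most of the latter sum was ACTA2, which averaged 168 FPKM in lncFABP4 samples and 94.2 FPKM in EGFP samples. ACTA2, CNN1 and a model of CSPG4 were called higher, but DES was called lower (log2 -0.63, adjusted p = 0.00907 by limma). The raised CSPG4 model was at 0.931, 1.17 and 0.869 FPKM in the EGFP samples, so it passed the filter only through the lncFABP4 samples. MYH11 and the other CSPG4 model were not called, and MCAM was under 1 FPKM in every sample. Sequencing depth relative to EGFP replicate 1, estimated from the steps of low values, was between 0.924 and 0.95 for lncFABP4 libraries and between 0.981 and 1.01 for EGFP libraries. The part of these differences in the p53 results was not tested. In such bulk samples, more cells of a kind and more RNA per cell cannot be told apart.

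**Figure D5:**
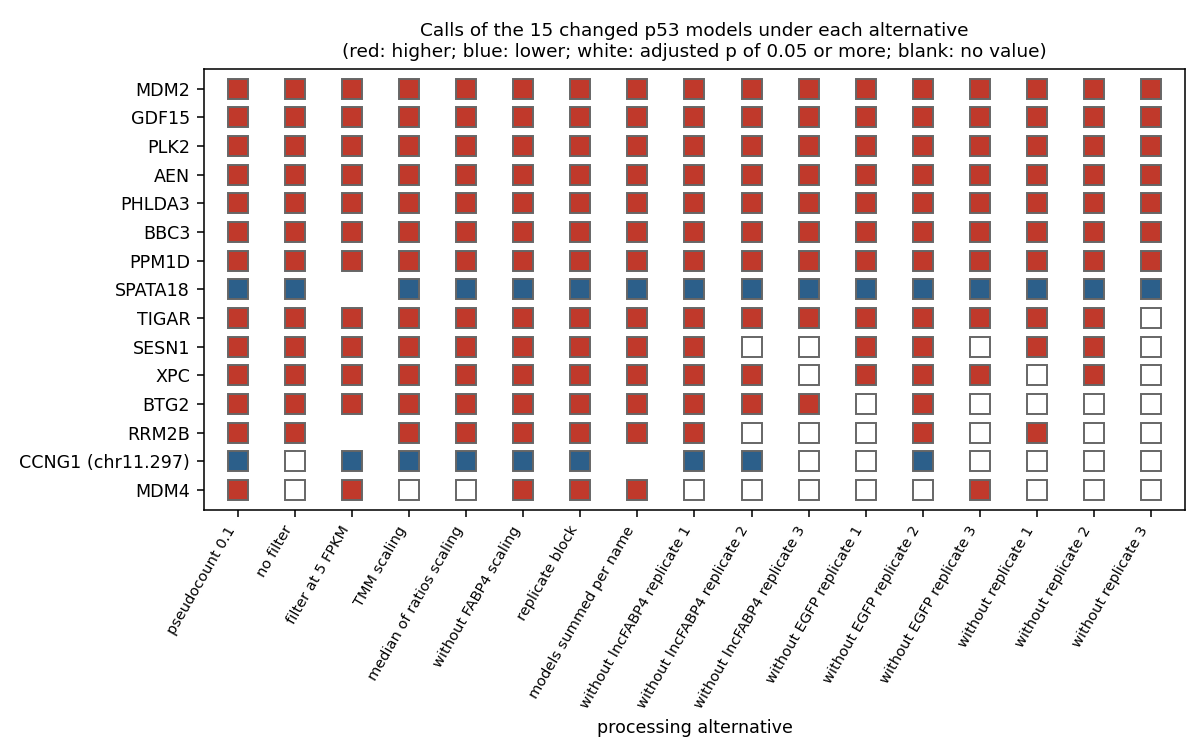
Calls of the 15 changed member models (rows, by adjusted p) under each of 17 processing alternatives (columns): red squares are called higher, blue squares called lower, white squares have an adjusted p of 0.05 or more and blanks have no value. The first 8 rows, from MDM2 to SPATA18, hold no white square (SPATA18 has no value with the filter at 5 FPKM), while the MDM4 row is filled in 6 columns.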

How the data were processed

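RNA enriched for poly(A) tails was sequenced on a DNBSEQ platform, per the labels' protocols. The submitters' processing notes name HISAT2 and StringTie, with no version; build, annotation and strandedness are not stated in the material at hand. The deposited table has 1 value per gene model and sample, with a UniProt entry and gene name. Its header names no unit; the values were taken as FPKM made by the authors, being decimals whose column totals differ (340165 to 360920). Read totals are unknown, so no count test was run.

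Models reaching 1 FPKM in 3 or more samples were fitted with limma 3.58.1 (R 4.3.3, two-sided) on log2(FPKM + 1), with a variance trend, group as the only term, and Benjamini-Hochberg adjustment; this scale understates changes of low genes. The scripts were tested on simulated data. Called members, members under the minimum and up to 6 called models of each other list with the smallest adjusted p are named with values; uncalled members are added, and 1 gene is not reported here. Members and lists were chosen with earlier results of these data known. The 17 alternatives changed the pseudocount, filter, scaling, block, merging of models or samples.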

Additional observations from a re-analysis of the deposited data

How the results depend on the processing

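Of the 15 member models called, 8 were called under all 17 alternatives that could give a value, and no call changed direction. Across all libraries or replicate numbers left out, 8 to 14 members were called, 7 to 12 higher and 1 to 2 lower; 1 was lower with no filter, with a filter at 5 FPKM and with models summed per name. Over the same alternatives limma called 515 to 3419 of all models (312 to 1974 higher, 203 to 1445 lower), 0 to 7 genes that control p53, 6 to 17 other targets, 1 to 5 DREAM targets, 2 to 7 of the apoptosis list and 0 to 4 stress genes. The lowest values were those without replicate number 3. There 4 of 26 models of genes that control p53 and 1 of 11 stress models had an unadjusted p under 0.05 by limma. So did 2565 of all 10745 models. With a filter at 5 FPKM 0 of 4 DREAM targets were called, and 0 had an unadjusted p under 0.05 by limma. Of all 7583 models, 2298 were then called and 3228 had an unadjusted p under 0.05. With no filter 5 of 23 DREAM targets were called, and 12 had an unadjusted p under 0.05. Of all 19476 models, 2590 were then called and 5554 had an unadjusted p under 0.05. Of all calls 61.8% were higher, against 51.2% with TMM scaling and 49.2% with median-of-ratios scaling; among members 12 were then higher and 3 lower. Same-numbered samples did not deviate together in every pair (r = 0.18, 0.29 and -0.08 across models, which are not independent), so the numbers are not taken as pairs. With the replicate block 16 members (14 higher, 2 lower) and 3336 models were called, and the lncFABP4 and EGFP samples of number 3 did not correlate best with each other. In these deviations lncFABP4 replicate 1 also went slightly more with EGFP replicate 3 (r = 0.20) than with EGFP replicate 1 (0.18). Unknown read depth limits the low members PERP, EDA2R and DDB2.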

Other observations

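The following values were chosen after they were seen, and no test was made of them. Among the lncFABP4 libraries, replicate 1 had the lowest FABP4 (6505 FPKM, against 10588 and 12003 in replicates 2 and 3). It had the highest CDKN1A (400.0 FPKM, against 306 and 332), which was not called, and the highest PERP, which was not tested. Of the 13 raised members, 6 were also highest in replicate 1: MDM2, GDF15, BBC3, PLK2, BTG2 and XPC. Other raised members were lowest in replicate 1: PPM1D (9.38 FPKM, against 12.8 and 11.4), AEN, SESN1, TIGAR and RRM2B. The cell cycle genes RRM2 (evm.model.chr10.721), TOP2A, CCNA2 and CDC20 were each lowest in that library: RRM2 was at 2.55 FPKM, against 6.78 and 6.65 in replicates 2 and 3, and TOP2A at 2.04 FPKM, against 4.86 and 4.38. In every lncFABP4 library these 4 genes stood above every EGFP library. Among the sestrins, SESN1 was called higher and SESN3 lower, while SESN2 was not called, at 4.39, 10.1 and 10.4 FPKM in the lncFABP4 samples and 5.26, 5.12 and 5.77 FPKM in the EGFP samples (log2 0.47, adjusted p = 0.217 by limma).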
